A study of Mus musculus with 2 samples.

Results

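The genes described here encode the machinery that shortens the poly(A) tail of messenger RNA, removes its cap and degrades its body. They were 49 named genes, found by symbol among the 47643 gene IDs of the deposited tables, and all 49 were found. The libraries came from E14 cells, a line of mouse embryonic stem cells from blastocysts of the 129/Ola background, and the labels call both AGO1 and AGO2 knocked out. This is the only genotype in the series and was sequenced as 2 polyA RNA libraries, called replicate 2 and replicate 1 after their titles. The cells grew in 15% serum and 100 U/mL LIF, a cytokine that sustains self-renewal, on plates coated with 0.2% gelatine. Neither the edited exons nor the clones are named, and nothing states that the cultures were separate. Errors given as SD therefore measure how far 2 libraries lay apart, which can be technical alone. Unmodified cells were not analysed here, so none of the values measures an effect of losing Argonaute. In bulk RNA, fewer cells of a type and less RNA per cell cannot be told apart.

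Argonaute proteins loaded with a microRNA recruit a GW182 protein (Tnrc6a, Tnrc6b or Tnrc6c in mice), which in turn docks the deadenylase complexes PAN2-PAN3 and CCR4-NOT. Once the tail is shortened, the DCP2 enzyme with its activators removes the cap and the exonuclease XRN1 degrades the RNA from its 5′ end, while the exosome degrades RNA from the 3′ end. The same machinery serves the general turnover of messenger RNA, so its genes are active in most cell types.

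Library totals were 29789560 gene counts in replicate 2 and 34798975 in replicate 1. All 8 embryonic stem cell markers reached 1 CPM (counts scaled to the library total) in both libraries, with summed levels of 6409 and 6727 CPM. Of 8 fibroblast markers 3 did so, with sums of 29.3 and 29.2 CPM, and Col3a1, Lum and Postn had no count. Sums were 5.91 and 7.93 CPM for 7 primitive endoderm markers and 65.8 and 56.6 CPM for 7 trophoblast markers, with 1 and 3 genes at 1 CPM. Most of each of these sums came from 1 gene. In replicate 2 and replicate 1, Thy1 gave 23.1 and 24.7 CPM of the fibroblast sums. Gata4 gave 4.33 and 5.78 CPM of the primitive endoderm sums, and Tfap2c gave 52.0 and 40.2 CPM of the trophoblast sums. Ago1 had 4205 counts in replicate 2 and 2463 in replicate 1, and Ago2 had 3839 and 4304. Counts summed over exons do not show which bases were edited, so these values cannot check the genotype labels.

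All 49 genes reached 1 CPM in both libraries, against 58.0% of the 21620 protein-coding genes. The lowest, Dcp1b, had 240 counts in replicate 2 and 323 in replicate 1, or 8.06 CPM (exact 95% interval 7.07 to 9.14) and 9.28 CPM (8.30 to 10.4), where the intervals cover counting error only. Since levels of different genes can be compared only per length, the values below are TPM, a share of the library per length, computed from the counts and the total exon length of each gene. The median log2(TPM + 1) of the 49 genes was 5.65 ± 0.04 (SD, n = 2), beside 4.20 ± 0.02 for the 12530 protein-coding genes that reached 1 CPM in both libraries. Of the 49 genes, 44 lay above the median of those expressed genes, 17.4 TPM, and 27 lay above their upper quartile, 43.4 TPM. A total of 44 genes had means from 10 to 100 TPM, 4 (Pabpc1, Lsm4, Xrn2 and Pabpc4) lay above 100 TPM and 1 lay below 10 TPM. On the longest coding transcript, 11 lay above 100 TPM. Together they took 0.782% of all counts in replicate 2 and 0.795% in replicate 1, and Pabpc1 alone took 37.8 and 39.9% of these. Exon length sums all annotated isoforms, and for 13 of the 49 genes the longest coding transcript is less than 50% of it. Levels were therefore also computed on the longest coding transcript. The rank order of the genes on both scales correlated with a Spearman rho of 0.79 across the 49 genes, which is a description, since both scales share the counts.

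**Figure D1:**
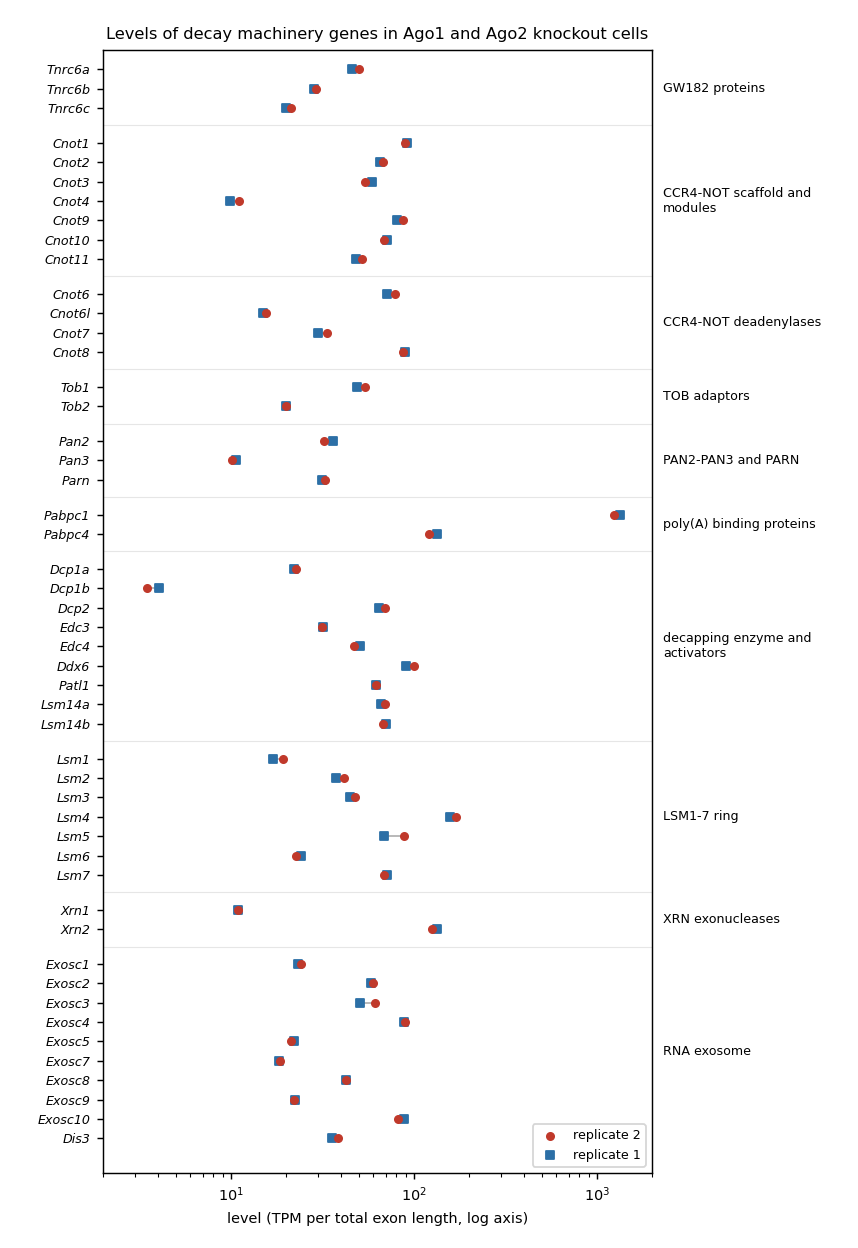
Level of each of the 49 genes in TPM per total exon length (log axis), by complex, with a circle for replicate 2 and a square for replicate 1 joined by a line. Pabpc1 stands alone at the top with 1293 TPM on average and Dcp1b alone below 10 TPM, and the libraries lie close together for every gene compared with the range between genes.

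The GW182 proteins are the scaffold between Argonaute and the deadenylases, and all 3 genes were expressed, in the order Tnrc6a, Tnrc6b, Tnrc6c. Tnrc6a (chromosome 7, 123123885 to 123195296, plus strand; coordinates are GRCm38 throughout) stood at 50.3 TPM in replicate 2 and 45.9 TPM in replicate 1. Tnrc6b (chromosome 15, 80711313 to 80941085, plus strand) stood at 29.1 and 28.4 TPM in the same libraries. For Tnrc6c (chromosome 11, 117654289 to 117763439, plus strand) the values were 21.2 and 19.9 TPM. The values of the genes did not overlap, and the order was the same in both libraries. Of the length-scaled GW182 signal, Tnrc6b supplied 28.9% in replicate 2 and 30.2% in replicate 1, Tnrc6c supplied 21.1 and 21.2%, and Tnrc6a supplied the rest. By reads alone the order of the first pair was the other way round, because Tnrc6b is the longest gene of the 49 with 23677 exonic bases: Tnrc6b had 251 and 244 CPM, and Tnrc6a had 232 and 211 CPM.

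In the CCR4-NOT complex, the main cytoplasmic deadenylase, the 11 genes spanned an 8.56-fold range of mean TPM, or 10.1-fold on the longest transcript. Cnot1, which encodes the scaffold on which the other subunits assemble, was the highest on total exon length. It had 89.2 TPM in replicate 2 and 91.1 TPM in replicate 1, within the spread of Cnot8 at 88.5 ± 1.79 TPM. On the longest transcript Cnot1 stood at 134 ± 1.52 TPM, above Cnot8 at 80.6 ± 1.34 TPM. Cnot9, the subunit that binds tryptophans of GW182 proteins, followed among the non-catalytic genes on total exon length with 87.0 and 80.3 TPM. On the longest transcript Cnot9 stood at 71.1 ± 4.24 TPM, below Cnot1, Cnot10 and Cnot3. Cnot10 and Cnot11, which form a module at one end of the scaffold, stood at 70.2 ± 2.14 and 50.3 ± 2.90 TPM (mean ± SD, n = 2). Cnot2 and Cnot3, which form a module at the other end, stood at 66.5 ± 1.84 and 56.5 ± 3.78 TPM. On the longest transcript Cnot3 was at 104 TPM, and 13.5% of its 50-base stretches recur in other genes, mainly a processed pseudogene. Cnot4, a ubiquitin ligase gene, was the lowest with 11.1 and 9.93 TPM, but on the longest transcript it stood at 21.5 ± 1.80 TPM, above Cnot6l at 13.3 ± 0.40 TPM.

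The catalytic subunits come as paralogs that replace each other within a complex: CNOT6 or CNOT6L of the EEP nuclease class, and CNOT7 or CNOT8 of the DEDD class. Cnot6 (chromosome 11, 49671503 to 49712723, minus strand) was far above Cnot6l (chromosome 5, 96070333 to 96164171, minus strand). Cnot6 stood at 79.2 TPM in replicate 2 and 71.7 TPM in replicate 1, and Cnot6l at 15.5 and 14.9 TPM. The log2 ratio was 2.31 ± 0.06 (n = 2), and Cnot6 held 83.7 and 82.8% of the length-scaled signal of the pair. Cnot7 (chromosome 8, 40492540 to 40515847, minus strand) was below Cnot8 (chromosome 11, 58104153 to 58118594, plus strand), with 33.4 and 30.0 TPM against 87.2 and 89.7 TPM. This log2 ratio was -1.48 ± 0.14, and -0.85 ± 0.14 on the longest transcript. Of the Cnot8 stretches, 7.82% recur in a processed pseudogene. The DEDD pair summed to 121 and 120 TPM and the EEP pair to 94.7 and 86.6 TPM, a ratio of 1.27 in replicate 2 and 1.38 in replicate 1. Tob1 and Tob2 encode adaptors that bind the DEDD subunits and poly(A) binding protein. Tob1 exceeded Tob2, with 53.7 TPM in replicate 2 and 49.2 TPM in replicate 1 against 20.0 and 20.1 TPM, a log2 ratio of 1.36 ± 0.09 that was 0.68 ± 0.09 on the longest transcript.

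The other deadenylases stood below the sums of the catalytic pairs of CCR4-NOT. Pan2, the catalytic subunit of PAN2-PAN3, had 32.1 TPM in replicate 2 and 36.0 TPM in replicate 1. Its partner Pan3, which binds poly(A) binding protein and GW182 proteins, had 10.1 and 10.7 TPM, or 20.3 ± 0.74 TPM on the longest transcript. Parn, a poly(A)-specific ribonuclease with known roles in the maturation of small RNAs, stood at 32.6 and 31.4 TPM. The DEDD pair of CCR4-NOT exceeded Pan2 by 3.76-fold in replicate 2 and 3.33-fold in replicate 1, and by 2.86-fold and 2.50-fold on the longest transcript. On total exon length Pan2 and Parn did not differ beyond the spread of Pan2, at 34.0 ± 2.77 and 32.0 ± 0.84 TPM. On the longest transcript they stood at 47.1 ± 3.67 and 43.0 ± 1.29 TPM, with Pan2 the higher in both libraries.

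The poly(A) binding proteins coat the tail that these enzymes remove. Pabpc1 (chromosome 15, 36595661 to 36609668, minus strand) was by far the most abundant of the 49 genes, with 1244 TPM in replicate 2 and 1342 TPM in replicate 1, above 99.4% of expressed protein-coding genes. Pabpc4 (chromosome 4, 123262351 to 123298925, plus strand) had 121 and 134 TPM. The log2 ratio of Pabpc1 over Pabpc4 was 3.34 ± 0.03, and 4.18 ± 0.03 on the longest transcript. The value of Pabpc4 is uncertain, since 54.8% of its 50-base stretches recur in other genes, 51.8% in the transcribed pseudogene Gm10110 alone. How the counting treated reads that map to several places is not given in the sources used here.

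**Figure D2:**
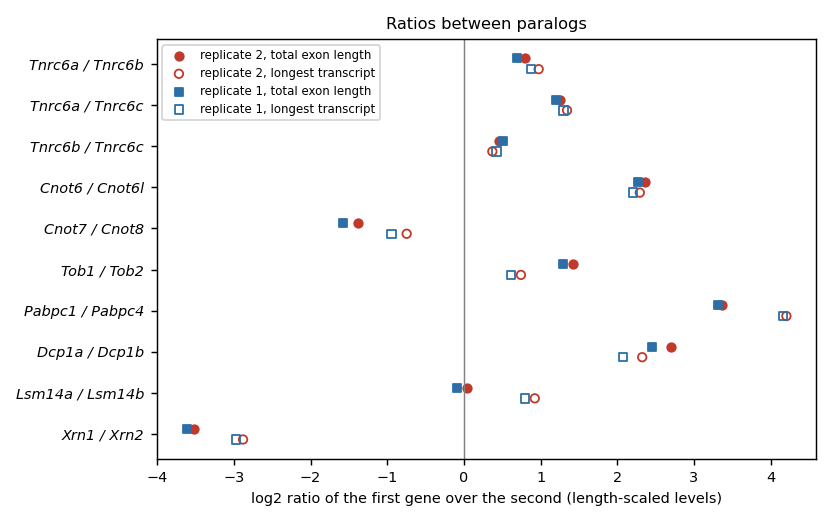
Log2 ratio of the first gene over the second in 10 pairs of related genes, for replicate 2 (circles) and replicate 1 (squares), with levels per total exon length (filled) or per longest coding transcript (open). The ratio keeps its sign in both libraries in 9 pairs, and Lsm14a / Lsm14b averages -0.03 per total exon length and 0.86 per longest transcript.

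Genes of decapping ranged from 3.77 to 95.1 TPM on average. Dcp2, the decapping enzyme (chromosome 18, 44380502 to 44424969, plus strand), stood at 69.1 TPM in replicate 2 and 64.5 TPM in replicate 1. Its cofactor is encoded by Dcp1a (chromosome 14, 30479535 to 30527063, plus strand) and Dcp1b (chromosome 6, 119175253 to 119221616, plus strand). Dcp1a had 22.7 and 22.1 TPM, and Dcp1b had 3.50 and 4.05 TPM, the lowest level of the 49 genes on both length scales. The log2 ratio of Dcp1a over Dcp1b was 2.58 ± 0.17.

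Among the activators, the RNA helicase gene Ddx6 was the highest on total exon length with 99.5 TPM in replicate 2 and 90.7 TPM in replicate 1. On the longest transcript it stood at 95.9 and 87.0 TPM, below Lsm14a at 105 and 99.6 TPM. DDX6 links CCR4-NOT to decapping. Patl1, whose product bridges DDX6 and the LSM1-7 ring, stood at 61.9 ± 0.23 TPM. Edc4, a scaffold of the decapping complex, stood at 48.8 ± 2.54 TPM. Edc3, an enhancer of decapping, stood at 31.7 ± 0.11 TPM, and 20.4% of its stretches are shared with Clk3, a gene that overlaps it on the opposite strand. Lsm14a and Lsm14b, which encode RNA granule proteins that bind DDX6, were level on total exon length. Lsm14a had 69.1 and 66.0 TPM and Lsm14b had 67.4 and 70.2 TPM, so that their order differed between the libraries and the log2 ratio of -0.03 ± 0.09 was within the spread. On the longest transcript Lsm14a was higher by a log2 ratio of 0.86 ± 0.09, so the order of this pair rests on the length used.

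LSM1 to LSM7 form a ring that binds the shortened tail and promotes decapping, and their genes spanned 9.05-fold in mean TPM. Lsm4 was the highest with 169 TPM in replicate 2 and 158 TPM in replicate 1, followed by Lsm5 with 88.7 and 69.0 TPM. The values of Lsm5, the shortest gene of the 49 with 792 exonic bases, lay farthest apart between the libraries, and 21.0% of its stretches recur in other genes, mainly a processed pseudogene. Lsm7 stood at 69.8 ± 2.04 TPM, with 14.3% of its stretches recurring. Lsm3 and Lsm2 stood at 46.2 ± 2.20 and 39.5 ± 3.10 TPM, but at 124 and 104 TPM on the longest transcript. Lsm6 (23.4 ± 1.07 TPM) and Lsm1 (18.1 ± 1.53 TPM) were the lowest. LSM1 is the subunit that sets this cytoplasmic ring apart from the nuclear one, in which LSM8 takes its place. Lsm1 and Lsm8 had 19.2 and 20.3 TPM in replicate 2, and 17.0 and 21.4 TPM in replicate 1. On the longest transcript Lsm1 reached 0.211 and 0.177 times the level of Lsm8.

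Of the 5′ exonucleases, the nuclear one was the more abundant. Xrn1, the cytoplasmic enzyme that degrades decapped RNA (chromosome 9, 95954760 to 96057803, plus strand), had 10.9 TPM in both libraries. Xrn2, the nuclear enzyme with a role in the termination of transcription (chromosome 2, 147012996 to 147078000, plus strand), had 126 TPM in replicate 2 and 134 TPM in replicate 1. The log2 ratio of Xrn1 over Xrn2 was -3.57 ± 0.07 and stood at -2.93 ± 0.07 on the longest transcript. Only Dcp1b, Pan3 and Cnot4 were lower than Xrn1 among the 49 genes, on the scale of total exon length.

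The exosome genes spanned 4.81-fold, a range that narrowed to 3.38-fold on the longest transcript. On total exon length Exosc4 was the highest with 89.2 TPM in replicate 2 and 88.1 TPM in replicate 1, and 17.8% of its stretches are shared with other genes, mainly Oplah, which overlaps it on the opposite strand. Exosc10, a catalytic subunit found mainly in the nucleus, had 82.1 and 88.7 TPM, and its mean of 85.4 ± 4.67 TPM did not differ from that of Exosc4 beyond this spread. Dis3, the other catalytic subunit described here, had 38.3 and 35.6 TPM. Among the cap and ring subunits, Exosc2 (59.0 ± 1.36 TPM, with 11.9% of its stretches shared, mainly with an overlapping antisense gene) and Exosc3 (55.9 ± 7.32 TPM) exceeded Exosc8 (42.5 ± 0.09 TPM) on total exon length. Exosc1 (23.7 ± 0.75 TPM), Exosc9 (22.2 ± 0.19 TPM), Exosc5 (21.6 ± 0.56 TPM) and Exosc7 (18.4 ± 0.13 TPM) were the lowest. The order depends on the length used. On the longest transcript Exosc8 was the highest exosome gene at 103 ± 0.15 TPM, above Exosc10 (79.9 ± 4.08 TPM), Exosc7 (76.5 ± 0.84 TPM), Exosc2 (73.4 ± 1.96 TPM), Exosc4 (69.7 ± 0.88 TPM) and Exosc3 (49.9 ± 6.71 TPM). Exosc5 and Exosc9 stood at 58.5 and 47.0 TPM on that scale, and Exosc1 was the lowest at 30.4 TPM.

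Other genes of RNA decay were read from 5 lists with 73 genes, and 66 of these reached 1 CPM in both libraries. All 10 genes of nonsense-mediated decay did, among them the helicase gene Upf1 (78.3 ± 3.97 TPM), with Upf3a (15.3 ± 1.18 TPM) the lowest. All 15 exosome cofactor genes did, led by the helicase gene Mtrex (71.7 ± 2.93 TPM), with Dis3l2 (8.82 ± 0.14 TPM), an exonuclease gene, the lowest. Of 10 other deadenylase and BTG genes 9 did. Btg2 (59.5 ± 3.21 TPM) led, and Btg4, an oocyte gene in mice, had no count in either library. Of 14 genes of tail binding, tail editing and cap metabolism 9 did. Dcps, a scavenger decapping gene, led with 127 ± 3.51 TPM, and Pabpc2 and Pabpc5 had no count. Of 24 genes of repressors and recruiters, a list that also held Lsm8, 23 did, led by Khsrp (102 ± 7.02 TPM), which encodes a binder of AU-rich elements, and Nanos2 had 1 count in each library. These orders hold on total exon length. On the longest transcript Paip2 (143 TPM) and Pabpn1 (115 TPM) stood above Dcps (92.8 TPM), and Eif4e2 (86.1 TPM) stood above Khsrp (80.2 TPM). The lowest on that scale were Smg6 (17.8 TPM) in nonsense-mediated decay and Dis3l (15.0 TPM) among the exosome cofactors. Mtrex and Btg2 led their lists on both scales. A gene with no count was not detectable at this depth. A floor of 3 counts was worth 0.101 CPM in replicate 2 against 0.0862 CPM in replicate 1.

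As a sequence feature that the choice of genes did not use, matches to the seed of a microRNA family abundant in such stem cells were counted in the annotated 3′ untranslated region of the longest coding transcript. The mature sequences (RefSeq, GRCm38.p6) are shown because they share the seed, bases 2 to 8, given in capitals. They come from the miR-290 cluster on chromosome 7 and the miR-302 cluster on chromosome 3.
mmu-miR-291a-3p: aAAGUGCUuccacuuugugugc
mmu-miR-294-3p: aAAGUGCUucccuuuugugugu
mmu-miR-295-3p: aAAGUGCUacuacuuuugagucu
mmu-miR-302b-3p: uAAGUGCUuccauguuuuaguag
mmu-miR-302d-3p: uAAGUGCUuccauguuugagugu

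The complement of this seed, AGCACTT, occurred on the sense strand in 10 of the 49 genes (20.4%) and in 17.4% of the 12407 expressed protein-coding genes with such a region. The density was 0.189 matches per kb in the 49 genes, 17 matches in all, and 0.133 matches per kb in the expressed genes. Dcp2 alone held 5 of the 17 matches, and the difference in density was not tested. The paralogs differed in holding a match in 3 families: Tnrc6b and Tnrc6c, Tob2 and Dcp1b held at least 1 match, while Tnrc6a, Tob1 and Dcp1a held none. The 3′ untranslated region had 11609 bases in Tnrc6b, 2588 in Tnrc6c and 2345 in Tnrc6a. It had 2457 in Tob2 against 767 in Tob1, and 1536 in Dcp1b against 3757 in Dcp1a. Cnot6 and Cnot6l both held matches, and neither gene did in the pairs Cnot7 and Cnot8, Pabpc1 and Pabpc4, Lsm14a and Lsm14b, and Xrn1 and Xrn2. The matches of the GW182 and EEP genes are shown, from GENCODE M21 transcripts, with the match in capitals and its genome position before it.
Tnrc6b, chr15:80931328-80931334, plus strand: gcggggaacatgctAGCACTTg
Tnrc6b, chr15:80935718-80935724, plus strand: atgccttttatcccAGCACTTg
Tnrc6c, chr11:117762134-117762140, plus strand: cgggcggccggccgAGCACTTg
Cnot6, chr11:49673045-49673051, minus strand: caggagaggggaggAGCACTTa
Cnot6, chr11:49672194-49672200, minus strand: atttatttcatattAGCACTTt
Cnot6l, chr5:96076659-96076665, minus strand: ttgcacattatcaaAGCACTTa

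Dcp2 held 5 matches in 7240 bases and Exosc4 held 2 in 962 bases, and Pan3 and Exosc1 held 1 each. Levels of the genes with a match ran from the lowest of the 49, Dcp1b, to Exosc4 at 88.6 ± 0.80 TPM. A match is a description of the sequence and not a site of binding, and whether these genes respond to the microRNAs cannot be read from 1 genotype.

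The libraries were then compared with each other, which describes how far the levels above lay apart between them. It does not cover the uncertainty from the length used. The comparison has no replicate check and concerns these libraries, not conditions. Differences were small: the median absolute log2 ratio of replicate 2 over replicate 1 was 0.09 over the 49 genes, beside 0.10 over the 9865 genes whose total counts lay in the same range, and the largest was 0.37. The two-sided exact binomial test, which weighs a difference against counting error alone, called 20 of the 49 genes, 13 higher and 7 lower in replicate 2, after Benjamini-Hochberg adjustment over all genes tested. Of all 19078 genes tested it called 24.2%, with 11.2% higher and 13.1% lower, and of the genes in the range of counts of the 49 it called 36.9%. The 40.8% called here is near the share of genes of like depth. With a dispersion estimated from these same libraries, edgeR's exact test called none of the 49, with 0 at an unadjusted p under 0.05, against 0.456% of all genes tested. That dispersion comes from the differences between these libraries themselves, so a lack of calls in edgeR's test does not show equal levels. None of the 20 genes called by the exact binomial test differed more than 1.5-fold. The median log2 ratio was 0.04 over the 49 genes and -0.01 over all genes tested.

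Among the called genes, the largest ratios in the higher direction were those of Lsm5, Exosc3, Cnot4, Lsm2 and Cnot7. Lsm5 had 761 counts in replicate 2 and 688 in the deeper replicate 1, which gave 0.37 ± 0.08 on the log2 scale (SE from counting) and, in the exact binomial test, an adjusted p of 1.89e-05. For Exosc3 the counts were 876 and 846, with 0.27 ± 0.07 and, in the same exact test, an adjusted p of 0.000839. Cnot4 (0.17 ± 0.06), Lsm2 (0.16 ± 0.05) and Cnot7 (0.16 ± 0.04) followed. Tnrc6a (0.14 ± 0.02) and Tnrc6c (0.09 ± 0.04) were also called higher, and Tnrc6b, at 0.04 ± 0.02, was not called. The remaining genes called higher were Cnot6, Ddx6, Cnot11, Cnot9, Dis3 and Dcp2, with ratios from 0.10 to 0.15.

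Lower in replicate 2 were Pan2 (-0.16 ± 0.04), Pabpc4 (-0.15 ± 0.03), Cnot3 (-0.13 ± 0.03), Exosc10 (-0.11 ± 0.03), Pabpc1 (-0.10 ± 0.01), Edc4 (-0.10 ± 0.04) and Xrn2 (-0.09 ± 0.03). Pabpc1 had 88095 counts in replicate 2 and 110483 in replicate 1 and the smallest adjusted p of the 49, 1.18e-55 in the exact binomial test, at one of the smaller ratios. Both poly(A) binding protein genes were thus lower, by a median log2 ratio of -0.13. Dcp1b had the most negative ratio of all, -0.21 ± 0.12, and at its depth this was not called. For comparison, the ratio of Ago1 was 0.99 ± 0.04 and that of Ago2 was 0.06 ± 0.03, so none of the 49 genes differed as much as Ago1 did. Ago1, a gene labelled as knocked out, was also called by edgeR's exact test, unlike Ago2 and the 49 genes. Why the libraries differed in Ago1 was not tested.

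**Figure D3:**
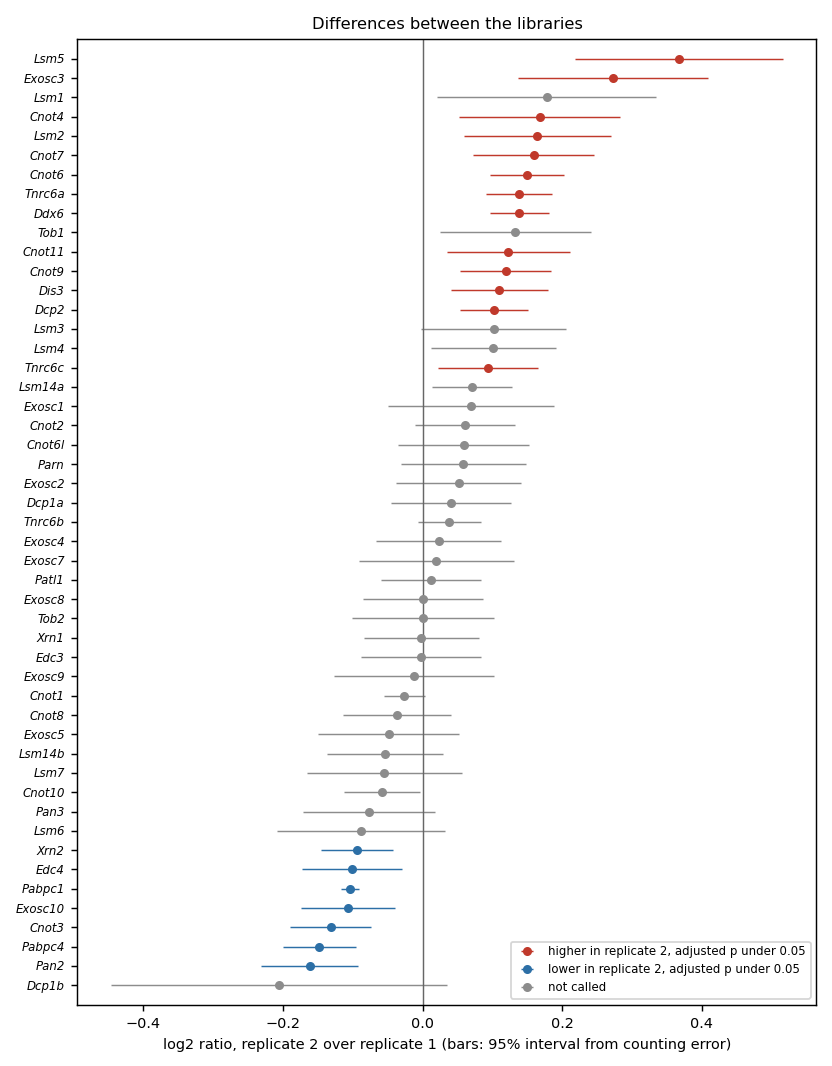
Log2 ratio of replicate 2 over replicate 1 for the 49 genes, sorted by ratio, with bars for the 95% interval from counting error. The ratios run from -0.21 for Dcp1b to 0.37 for Lsm5, with 13 genes called higher and 7 called lower in the exact binomial test.

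GC content moved with this difference. Across the 49 genes the ratio fell with the GC content of the longest coding transcript (Spearman rho -0.42, Pearson r -0.45, across 49 genes of the same libraries, as a description), and over the 9865 genes of like depth rho was -0.35. The genes called higher had a median GC content of 44.9% and those called lower one of 52.5%, while the 49 genes together had 48.3%. After a smooth trend on GC content and exon length was removed, the exact binomial test called 15 of the 49 genes, 10 higher and 5 lower. Of all genes tested it called 10.6% higher and 10.4% lower. Shares for genes of like depth were not computed after removal. Before removal 36.9% of those genes were called against 24.2% of all genes, so the shares of all genes are a low yardstick for the 49. Of the 20 genes first called, 13 kept their call and direction. The call was lost for Cnot4 (0.13 after removal), Cnot7 (0.09), Dis3 (0.06), Dcp2 (0.04), Exosc10 (-0.06), Cnot3 (-0.03) and Edc4 (-0.02), each with its direction kept, and Cnot1 (-0.06) and Lsm4 (0.18) gained one. A lost call does not by itself show a ratio of 0, since Cnot4 still stood at 0.13 after removal, while Edc4 stood at -0.02. Lsm5 (0.29), Exosc3 (0.25), Pan2 (-0.12) and Pabpc1 (-0.12) were among those that kept it. The part of GC content in the difference was not tested further.

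**Figure D4:**
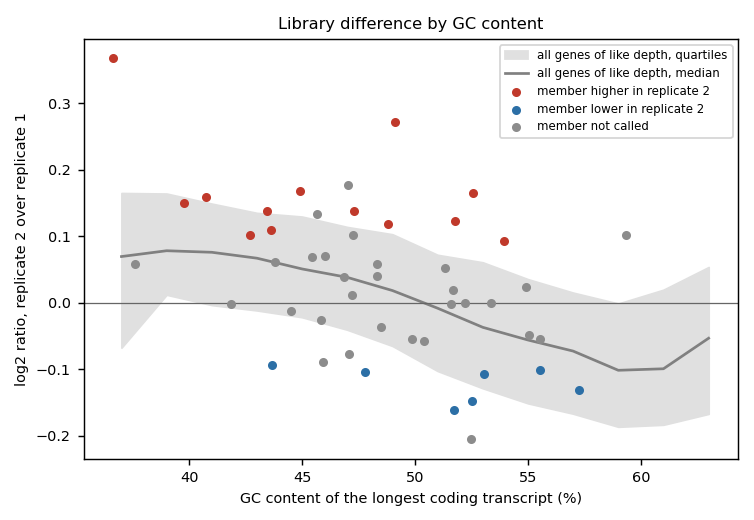
Log2 ratio of replicate 2 over replicate 1 against the GC content of the longest coding transcript for the 49 genes (points, coloured by call in the exact binomial test). The line and band give the median and quartiles, in GC bins of 2 percentage points, of the 9865 genes with total counts in the same range; the median falls from 0.08 near 39% to -0.10 near 59%.

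By complex, the calls were spread over most groups, to be read against the 24.2% called of all genes and 36.9% at like depth. They took 2 of 3 GW182 genes, 6 of 11 CCR4-NOT genes, 3 of 9 decapping genes, 2 of 7 ring genes, 3 of 10 exosome genes, both poly(A) binding protein genes, Pan2 and Xrn2, and neither TOB adaptor gene. In CCR4-NOT, 5 were higher and 1 was lower in replicate 2, and after the GC and length trend was removed 3 were higher and 1 was lower. In the other decay lists the test called 23 of 69 genes tested (33.3%, between these same shares), 16 higher and 7 lower, and edgeR's exact test called none, with 0 at an unadjusted p under 0.05. The counts per list are small and are given as descriptions. Nonsense-mediated decay had 5 higher and 1 lower of 10, with Smg8 (0.20 ± 0.06), Upf2 (0.18 ± 0.04) and Upf3a (0.16 ± 0.06) at the largest ratios among those called. Of the exosome cofactors 2 were higher and 2 lower, among them Pelo, a ribosome rescue gene (0.35 ± 0.09, with 60.0% of its stretches recurring in other genes), Skiv2l (-0.20 ± 0.06) and Zcchc8 (-0.19 ± 0.04). Of the other deadenylase and BTG genes 4 were higher and 1 lower, with Angel1 (-0.33 ± 0.07), Noct (0.30 ± 0.05, with 34.2% shared) and Angel2 (0.20 ± 0.06) at the largest ratios. In the list of tail binding, tail editing and cap enzymes only Paip2b was called, lower by -0.15 ± 0.03. Of the repressors and recruiters 5 were higher and 2 lower, led by the AU-rich element binders Zfp36l1 (0.26 ± 0.04, with 54.4% of its stretches shared, mainly with an overlapping noncoding gene) and Zfp36l2 (0.25 ± 0.06) and by Eif4e2 (0.18 ± 0.03), which encodes a cap-binding repressor.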

How the data were processed

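The authors deposited unnormalized read counts per Ensembl gene, whole numbers in each of 2 tables, 1 per library. STAR 2.4.2a and mm10 (GRCm38) are named, per the submitters' processing notes. A reverse-stranded polyA kit took 1 ug of RNA, per the labels' protocols. Which tool counted, with which strand setting and gene models, is not given in the sources used here. IDs were named with GENCODE M21 (47224 of 47643). From the deposited counts, CPM used the library total and TPM the total exon length.

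Setting 1 library of the group against the other leaves no residual degrees of freedom, so replicate 2 was set against replicate 1, gene by gene, in an exact binomial test (two-sided) on totals scaled by edgeR 4.0.16 TMM factors (0.999 in replicate 1, 1.00 in replicate 2), with Benjamini-Hochberg adjustment over all genes with at least 10 counts called under 0.05. To form log2 ratios, 0.5 counts were added. GC and length trends were lowess fits (fraction 0.3). Shared sequence is the share of 50-base stretches found on either strand in other GENCODE transcripts. The test was run first on data simulated with sampling noise only and with an added dispersion, and the outcomes are not given here. Members, lists and tests were chosen with earlier results of these data known. Named in full were the extremes of each complex, paralog pairs and the 5 largest called ratios per direction. Protein sequences were not used here.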

Additional observations from a re-analysis of the deposited data

How the results depend on the processing

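No paired analysis was possible because the series holds 1 group. The count of genes at 1 CPM or more stayed at 49 at 0.5 CPM, at 1 TPM and without either library, and was 48 at 10 CPM. The median log2(CPM + 1) of the 49 genes, 6.09 ± 0.02, ran from 6.08 to 6.11 without either library and was 6.16 over genes with under 10% shared stretches. The median log2(TPM + 1) was 5.77 on the longest coding transcript. Without length scaling, the log2 ratio of Tnrc6a over Tnrc6b was -0.16 and that of Tob1 over Tob2 was -0.18, both reversed. The exact binomial test called 4624 genes in all, and edgeR's exact test 87 in all, 0 of the 49 and 0 of the other decay genes; the cause was not tested beyond the dispersion it includes. Calls among the 49 were 20 with DESeq2 1.42.0 size factors or plain totals, 19 with no filter on low counts, 22 at 100 counts or more and 15 after the GC trend. Depth limits the ratio of Dcp1b most, with a counting SE of 0.12. Leaving out a library leaves no comparison between libraries.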
